A study of Mus musculus with 6 samples.

Results

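The Clca family (chloride channel accessory proteins) of the mouse small intestine is described here across 6 pools of mucosal RNA. Its members were taken as the 7 protein-coding Clca genes of the cluster on chromosome 3, which are Clca1, Clca2, Clca3a1, Clca3a2, Clca3b, Clca4a and Clca4b. They are 7 of the 38561 genes in the tables, and all 7 were among the 16425 genes that passed the expression filter. The members belong together by gene family and position, and the family was chosen by its counts in these pools, with the differences between genotypes already known. Those differences are therefore given as a description of the members. The adjusted p-values beside them place each gene in the table of all genes and support nothing further.

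Clca proteins are secreted or membrane-anchored and share a metalloprotease-like domain followed by a von Willebrand factor type A domain. They were first described as chloride channels and are now known as modulators of other channels and of mucus. Clca1 is made by goblet cells, secreted with Muc2 and able to cleave mucus proteins. Clca4a and Clca4b are the mouse counterparts of human CLCA4, a gene of the intestinal epithelium. Clca3a1, Clca3a2 and Clca3b belong to a branch whose human gene has lost its function. Clca2 is best known from stratified epithelia such as skin.

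The mucosa came from chow-fed C57BL/6J mice, which the labels give as 8 to 12 weeks old, and each pool combined RNA of 3 mice of both sexes. Of the 6 pools, 3 carry the genotype Rbm47_IKO, a loss of the RNA-binding protein Rbm47 in intestinal epithelium driven by Cre under the villin promoter. The other 3 carry the genotype wt, which the methods of the study describe as floxed mice (Rbm47 fl/fl). RNA was selected with oligo(dT) and the pools held 31560320 to 38951830 counts on genes. The methods give slightly wider ranges for the age and the number of mice per pool than the labels do. With pools in place of single mice, p-values measure the spread between pools.

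Rbm47 itself went against the labels. Its CPM (counts scaled to a common library size, here corrected by the TMM method) was 602.7, 624.6 and 619.8 in the pools labelled Rbm47_IKO and 459.8, 449.9 and 472.1 in the wt pools. Every pool labelled Rbm47_IKO was above every wt pool (log2 fold change 0.42, SE 0.0997, edgeR adjusted p = 0.0751). The tables count Rbm47 as a whole gene, so that reads from a deleted part and from the rest of the gene cannot be told apart. The direction of each difference below follows the labels, hence the wording pools labelled Rbm47_IKO. Over all genes tested, 443 were called at an adjusted p of 0.05 or less, which is 2.70% of them. The enterocyte markers were abundant in every pool, with a summed CPM of 62810 or more over 11 genes. The goblet cell marker Muc2 lay between 1213 and 1769, so that absorptive and goblet cells were both represented. Smooth muscle genes differed widely between pools of either genotype, with a summed CPM over 6 genes of 360.9, 585.7 and 3302 in the pools labelled Rbm47_IKO and of 90.73, 2803 and 313.1 in the wt pools.

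The 7 genes lie on the minus strand of chr3:144729677-145099104 (GRCm38), a stretch of 369 kb. From the low-coordinate end they are Clca3a1, Clca3a2, Clca3b, Clca4b, Clca4a, Clca1 and Clca2. Of the 10 genes counted inside this stretch, 3 are not members. Clca4c-ps, a pseudogene of the family, held 0 to 3 counts in every pool and was not tested. Gm16215, a processed pseudogene inside Clca3b on the opposite strand, held 11 to 45 counts in a pool (log2 fold change -1.28, edgeR adjusted p = 0.152). Gm16233, an antisense gene that overlaps the 3′ end of Clca4a, did not differ beyond the spread between pools (log2 fold change -0.03, edgeR adjusted p = 0.971). Use of strand in the counting is not given in the sources used here, so that reads of these overlapping genes may not have been separated.

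The members fell into close pairs by sequence, which sets how far their counts can be told apart. Over the aligned coding bases, Clca3a1 and Clca3a2 were 97.1% identical and Clca4a and Clca4b were 96.0% identical. Clca3b was 87.0% identical to each of Clca3a1 and Clca3a2. The other pairs of members were 59.8% to 66.2% identical. Stretches of 50 bases that also occur in a transcript of another gene made up 25.8% of those in Clca3a1 and 26.5% in Clca3a2. Of these stretches, 820 of 896 in Clca3a1 and 864 of 955 in Clca3a2 were shared between this pair. The share was 37.1% in Clca4a, 24.8% in Clca4b and 5.98% in Clca3b, and Clca1 and Clca2 held none. Of the 1096 shared stretches of Clca4a, 697 also occur in Clca4c-ps, and of the 731 of Clca4b, 619 also occur in Clca4a. The values of the close pairs are uncertain to the extent that reads from such stretches were split or dropped.

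The family was dominated by 3 genes. Per kilobase of gene length, Clca4b had an RPKM of 1158 ± 168.1 (SD, n = 3), Clca1 of 866.2 ± 15.7 (SD, n = 3) and Clca4a of 494.9 ± 68.3 (SD, n = 3) in the wt pools. Clca3b followed at 25.95 ± 9.16 (SD, n = 3). The lowest RPKM values were those of Clca3a1 at 8.04 ± 7.16 (SD, n = 3), Clca3a2 at 3.45 ± 1.102 (SD, n = 3) and Clca2 at 0.597 ± 0.222 (SD, n = 3). Neighbours in this order were separated in the 3 wt pools, except Clca3a1 and Clca3a2, whose ranges overlapped. The nearest separated neighbours were Clca4b, whose lowest pool stood at 992.4, and Clca1, whose highest stood at 880.1, and Clca3b (17.1) and Clca3a1 (16.26) at the lower end. By mean CPM over the 6 pools, Clca1, Clca4b and Clca4a ranked 25, 28 and 69 among all genes in the tables.

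In the pools labelled Rbm47_IKO the first 2 members changed places in the order, as did Clca3a1 and Clca3a2. Clca1 stood first at an RPKM of 1313 ± 267.7 (SD, n = 3), ahead of Clca4b at 820.4 ± 93.8 (SD, n = 3) and Clca4a at 572.5 ± 16.6 (SD, n = 3). Each of the 3 pools had more Clca1 than Clca4b, and each wt pool had less. Clca3a2 at 1.52 ± 0.330 (SD, n = 3) stood above Clca3a1 at 0.914 ± 0.133 (SD, n = 3), again without overlap. Clca3b at 15.58 ± 4.38 (SD, n = 3) kept the fourth place and Clca2 at 0.394 ± 0.0747 (SD, n = 3) the last.

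**Figure D1:**
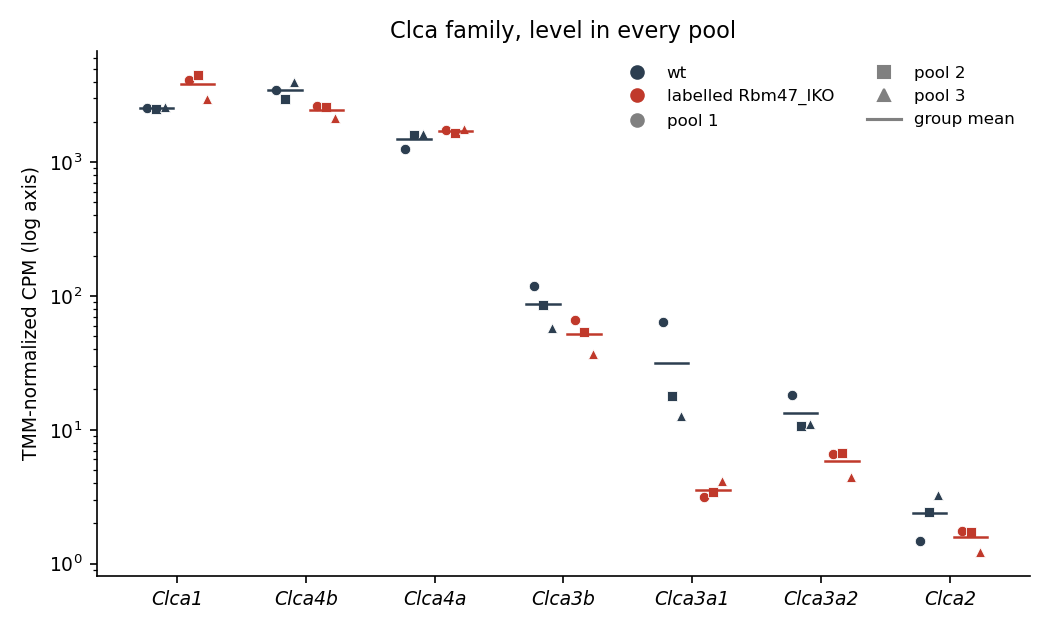
Level of the 7 Clca genes in every pool, as TMM-normalized CPM on a log axis, with wt pools in dark blue, pools labelled Rbm47_IKO in red and lines at the group means. Clca1, Clca4b and Clca4a lie at 1250 CPM or more in all 6 pools, and Clca3a1 lies between 3.12 and 4.135 in the pools labelled Rbm47_IKO against 12.62 to 63.41 in wt.

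Clca1 (ENSMUSG00000028255, chr3:145004537-145032776), the goblet cell member, was higher in every pool labelled Rbm47_IKO than in every wt pool. Its CPM was 4075, 4506 and 2982 in the pools labelled Rbm47_IKO and 2551, 2492 and 2583 in the wt pools. The wt pools lay close together, whereas pool 3 labelled Rbm47_IKO stood well below the other two of its genotype. The means were 3855 ± 785.6 (SD, n = 3) and 2542 ± 46.0 (SD, n = 3), a ratio of 1.52. The log2 fold change was 0.60 (SE 0.173, 95% interval 0.20 to 1.003), and the gene did not pass the threshold over all genes tested (edgeR adjusted p = 0.123). The 3′ end of Clca1 was counted only in part. Its deposited exon length is 2935 bases, against 3655 bases in the transcript of GENCODE M21. In bulk mucosa, here and below, more cells of a type and more RNA per cell cannot be told apart.

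Clca4b (ENSMUSG00000074195, chr3:144910921-144932529), the member with the highest level in wt mucosa, was lower in every pool labelled Rbm47_IKO. The 3 pools of that genotype had a CPM of 2638, 2603 and 2135, against 3452, 2974 and 3981 in the wt pools. The groups did not overlap, and the means of 2459 ± 281 (SD, n = 3) and 3469 ± 503.7 (SD, n = 3) differed by a log2 fold change of -0.50 (SE 0.161, 95% interval -0.87 to -0.12, edgeR adjusted p = 0.168). Clca4a (ENSMUSG00000068547, chr3:144952480-144975045), its close paralog, had a CPM of 1735, 1664 and 1760 in the pools labelled Rbm47_IKO and of 1250, 1594 and 1615 in the wt pools. The groups were also separate, but wt pools 2 and 3 lay close to the other genotype and only wt pool 1 stood apart. Its log2 fold change was 0.21 (SE 0.139, 95% interval -0.11 to 0.53, edgeR adjusted p = 0.527) and 0.099 without wt pool 1.

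The ratio of the paralogs leaves out differences in depth between pools. There were 0.658, 0.639 and 0.825 Clca4a counts for each Clca4b count in the pools labelled Rbm47_IKO and 0.362, 0.536 and 0.406 in the wt pools. The groups did not overlap, and Clca4b held the larger count in all 6 pools. With the counts of Clca4a and Clca4b summed to 1 feature, the log2 fold change was -0.25 (SE 0.142, edgeR adjusted p = 0.454).

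Clca3a1 (ENSMUSG00000056025, chr3:144729677-144760977) had the largest difference of the family and was its 1 member past the threshold. This protein is known from lymphatic endothelium, where it binds a leukocyte integrin. Its CPM was 3.12, 3.432 and 4.135 in the pools labelled Rbm47_IKO and 63.41, 17.97 and 12.62 in the wt pools, from 108, 130 and 135 counts against 2156, 682 and 460. The pools labelled Rbm47_IKO lay within a narrow range below every wt pool, and the wt pools differed widely, with pool 1 far above the others. The log2 fold change was -3.14 (SE 0.60, 95% interval -4.53 to -1.74, edgeR adjusted p = 0.0415), a mean 8.79 times as high in wt. Of all genes tested, 1.25% were called lower, and Clca3a1 ranked 367 by p among all genes.

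The size of the Clca3a1 difference depended on wt pool 1 and its call on 4 of the other pools. Without wt pool 1 the log2 fold change was -2.10 (edgeR adjusted p = 0.0177). The call was lost without wt pool 3 (adjusted p = 0.0621) and without any 1 of the pools labelled Rbm47_IKO (adjusted p = 0.177, 0.215 and 0.116 for pools 1, 2 and 3). It was also lost with limma-voom (-2.77, adjusted p = 0.105), with the replicate block (-2.76, 0.0904) and when the summed level of 4 Y-linked genes entered the fit (-2.80, 0.178), with a log2 fold change of similar size in each. The Y-linked sum, which follows the share of males in a pool, was 138.6, 53.04 and 143.7 CPM in the pools labelled Rbm47_IKO and 215.4, 87.87 and 220.3 CPM in wt.

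Clca3a2 (ENSMUSG00000028262, chr3:144796559-144819494), the close copy of Clca3a1, differed in the same direction and by less. Its CPM was 6.557, 6.68 and 4.41 in the pools labelled Rbm47_IKO and 18.23, 10.67 and 11.06 in the wt pools. The groups did not overlap, and wt pool 1 was again the highest (log2 fold change -1.18, SE 0.269, 95% interval -1.80 to -0.55, edgeR adjusted p = 0.0686). Within the pair the balance turned over. There were 0.476, 0.514 and 0.938 counts of Clca3a1 for each count of Clca3a2 in the pools labelled Rbm47_IKO and 3.48, 1.68 and 1.14 in the wt pools. Clca3a2 therefore held the larger count in every pool labelled Rbm47_IKO and the smaller count in every wt pool. With their counts summed, the pair differed by -2.24 on the log2 scale (SE 0.453, edgeR adjusted p = 0.0490). Without wt pool 1 the value was -1.47 (adjusted p = 0.0159). The call was lost without wt pool 3, without any 1 of the pools labelled Rbm47_IKO (adjusted p of 0.0653 to 0.222) and under 6 of 12 other settings (0.0505 to 0.21).

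Clca3b (ENSMUSG00000037033, chr3:144822623-144849357), the most abundant of its branch, had a CPM of 66.26, 53.91 and 36.97 in the pools labelled Rbm47_IKO and of 118.9, 85.27 and 57.46 in the wt pools. The groups overlapped, since the lowest wt pool was below the highest pool labelled Rbm47_IKO (log2 fold change -0.74, SE 0.294, 95% interval -1.42 to -0.05, edgeR adjusted p = 0.262). Paneth cell genes were, like Clca3b, lowest in pool 3 of each genotype, with a summed CPM over 6 genes of 870.9, 981.8 and 537.6 in the pools labelled Rbm47_IKO and of 1933, 1372 and 538.9 in wt. None of these 6 genes was at 0 in any pool, all 6 had a log2 fold change below 0 and 0 were called by edgeR (0 at an unadjusted p under 0.05), DESeq2 or limma-voom. The 8 B and plasma cell genes likewise all had a log2 fold change below 0, with 0 called by the same measures and a summed CPM of 357.5 to 661.7 against 590.2 to 1041, highest in wt pool 1. The part of these cells in the values of the Clca3 genes was not tested.

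Clca2 (ENSMUSG00000036960, chr3:145070265-145099104) was the rarest member, with 61, 65 and 40 counts in the pools labelled Rbm47_IKO and 50, 92 and 118 in the wt pools. These counts correspond to a CPM of 1.225 to 1.762 and of 1.47 to 3.238, and the groups overlapped. Its log2 fold change was -0.60 (SE 0.35, 95% interval -1.41 to 0.22, edgeR adjusted p = 0.459).

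**Figure D2:**
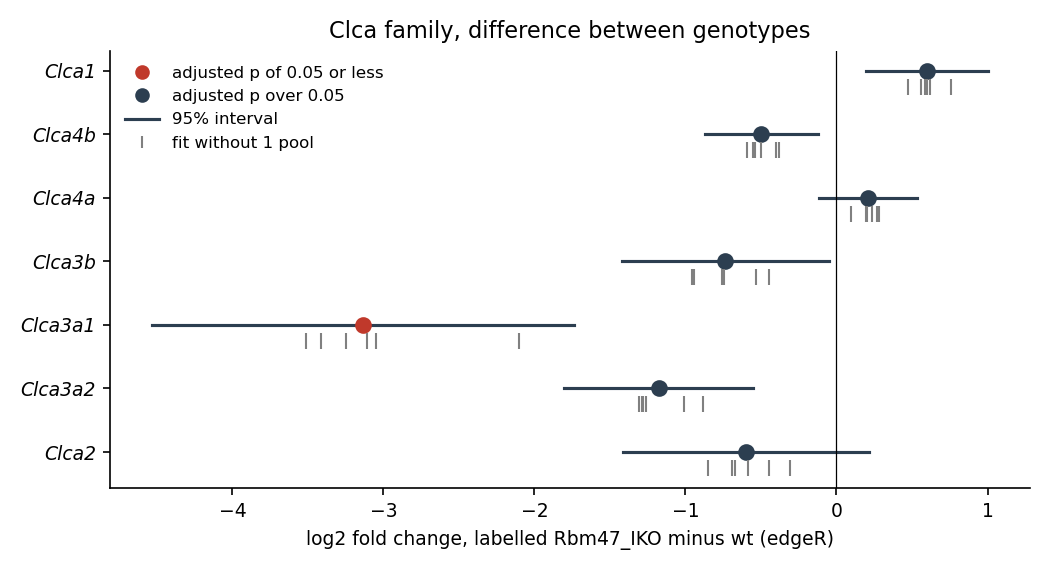
Difference between genotypes for each Clca gene, as the edgeR log2 fold change of the pools labelled Rbm47_IKO over wt with its 95% interval, and grey ticks for the fits that each leave out 1 pool. Clca3a1 at -3.14 is the only one with an adjusted p of 0.05 or less, and its ticks run from -3.51 to -2.10.

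Across the family, 2 members had a log2 fold change above 0 and 5 below 0, with a median of -0.60, against a median of -0.00586 and 49.3% above 0 over all genes tested. The groups did not overlap for 5 members, namely Clca1 and Clca4a on the higher side and Clca3a1, Clca3a2 and Clca4b on the lower. The same held for 23.3% of all genes tested, 11.7% on the higher and 11.6% on the lower side. An unadjusted edgeR p under 0.05 was found for Clca1, Clca3a1, Clca3a2, Clca3b and Clca4b, and for 16.8% of all genes tested. At an adjusted p of 0.05 or less, DESeq2 called 4 members and 8.39% of the genes it gave an adjusted p, limma-voom 0 members and 2.62% of all, and edgeR with a smooth muscle covariate 2 members and 4.33%. These counts were part of what chose the family.

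The summed level of the family overlapped between genotypes, whereas the shares of its 2 leading members did not. All 7 genes together had a CPM of 8525, 8839 and 6924 in the pools labelled Rbm47_IKO and of 7455, 7177 and 8264 in the wt pools. Without Clca1 the other members summed to 4450, 4333 and 3942 against 4904, 4685 and 5681, which did not overlap. The family took 0.716% to 0.859% of all counts in a pool. Clca1 supplied 47.8%, 51.0% and 43.1% of the family's counts in the pools labelled Rbm47_IKO and 34.2%, 34.7% and 31.3% in wt. Clca4b supplied 30.9%, 29.4% and 30.8% against 46.3%, 41.4% and 48.2%. The leading gene of the family was thus Clca1 in every pool labelled Rbm47_IKO and Clca4b in every wt pool. The share of Clca4a overlapped between genotypes, with 18.8% to 25.4% and 16.8% to 22.2%, and so did those of Clca3b (0.534% to 0.777% and 0.695% to 1.6%) and Clca2 (0.0177% to 0.0207% and 0.0197% to 0.0392%). There were 1.4 to 1.73 Clca1 counts for each Clca4b count in the pools labelled Rbm47_IKO and 0.649 to 0.838 in wt.

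**Figure D3:**
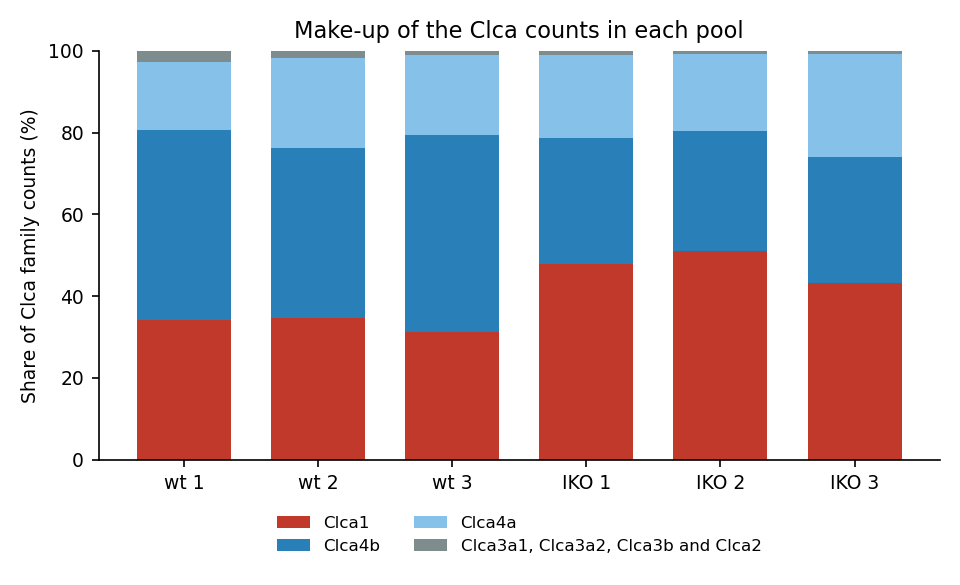
Share of the Clca family counts that each gene supplied in every pool, in percent, with wt pools on the left, pools labelled Rbm47_IKO (IKO) on the right and the 4 rarest genes drawn together in grey. The Clca1 share is 31.3% to 34.7% in wt and 43.1% to 51.0% in the pools labelled Rbm47_IKO, and the Clca4b share moves the other way.

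Along the chromosome the differences did not run in 1 direction. The 4 members nearest the low-coordinate end, from Clca3a1 to Clca4b, had log2 fold changes from -3.14 to -0.50. Clca4a and Clca1 next to them had values above 0, and Clca2 at the other end had -0.60. The genes flanking the cluster were not called. On the low-coordinate side they were Sh3glb1 (log2 fold change -0.22, edgeR adjusted p = 0.351), Selenof (0.15, adjusted p = 0.64) and Hs2st1 (0.36, adjusted p = 0.208). On the other side they were Odf2l (-0.25, adjusted p = 0.402), Col24a1 (-0.03, adjusted p = 0.984) and Znhit6 (-0.11, adjusted p = 0.924).

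**Figure D4:**
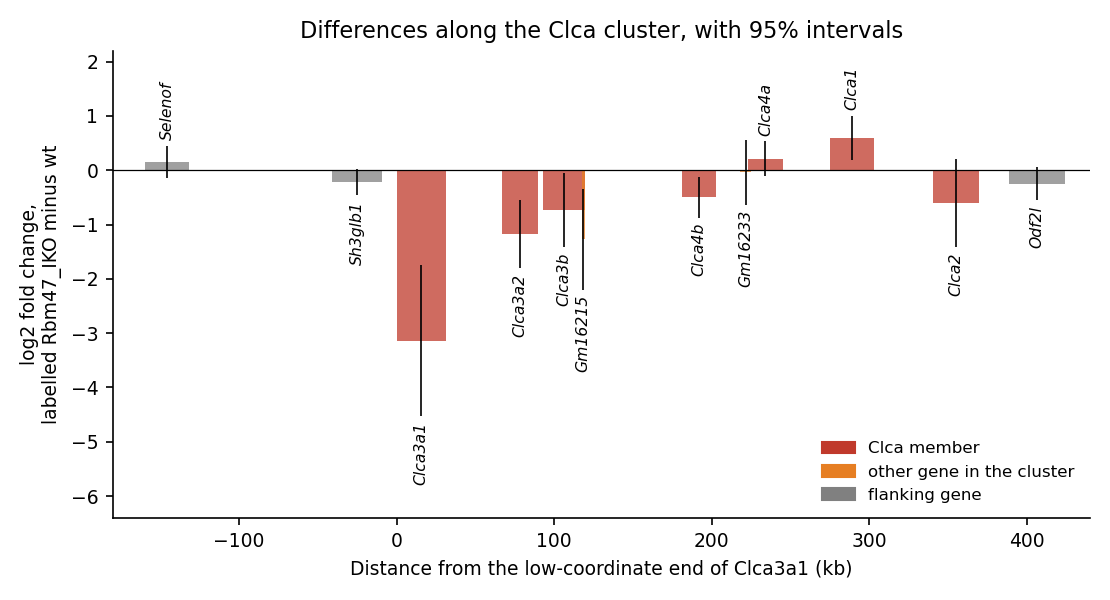
Log2 fold change with its 95% interval for each tested gene of the Clca cluster and for its neighbours Selenof, Sh3glb1 and Odf2l, drawn at the gene's position in kb from the low-coordinate end of Clca3a1. Members are red, other genes inside the cluster orange and flanking genes grey; the values run from -3.14 at Clca3a1 to 0.60 at Clca1 within 369 kb.

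The start regions of the members held 1 shared block. RefSeq promoters (250 bases before to 50 after the start, GRCm38.p6) were in the table used for Clca2, Clca3a1, Clca3a2, Clca3b and Clca4b. Those of Clca3a2 and Clca3b shared a block of 119 bases without gaps that was 99.2% identical and ran from 69 bases before to 49 bases after the start of Clca3a2. No other pair had an exact run longer than 9 bases in common, Clca3a1 and Clca3a2 included. The stretch around the 1 difference in the block is shown because it lies before the RefSeq start of each gene, at chr3:144819509-144819538 for Clca3a2 and chr3:144849325-144849354 for Clca3b (GRCm38, minus strand). In Clca3b it falls inside the gene as counted in the tables, whose 5′ end is at 144849357. The capital marks that difference, G15A counted from 1 at the 5′ end of the stretch.
Clca3a2: aaattcccgagcgaGgcacacacataaatg
Clca3b: aaattcccgagcgaAgcacacacataaatg

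Coding sequence and start region therefore paired these genes in different ways. Clca3a1 and Clca3a2 had nearly the same coding sequence, no long run in common between their start regions, and log2 fold changes of -3.14 and -1.18. Clca3a2 and Clca3b shared the start block and had log2 fold changes of -1.18 and -0.74. There were 10.1, 8.07 and 8.38 counts of Clca3b for each count of Clca3a2 in the pools labelled Rbm47_IKO and 6.52, 7.99 and 5.20 in wt. These ranges were separate, although by little.

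The 3′ UTRs of the members were read for AUUUA, written ATTTA in the DNA alphabet, since Rbm47 binds RNA and the study examined this motif in the 3′ UTRs of changed genes. The search covered the transcript strand only. All 7 members held the motif at least once, as did 69.1% of the 14093 tested genes with a 3′ UTR in GENCODE M21. The members' 3′ UTRs were AT-rich, with a GC content of 25.1% to 38.0% against a median of 44.8%. The short 3′ UTRs of Clca3b, Clca4a and Clca4b (154, 195 and 189 bases) carried 6.49, 5.13 and 10.6 motifs per kb, against a median of 1.24. Among tested genes with 3′ UTRs within 10% of those lengths, 23.8%, 24.3% and 25.7% held the motif. The longer 3′ UTRs of Clca1, Clca2, Clca3a1 and Clca3a2 (882, 1017, 696 and 920 bases) carried 2.27, 0.983, 2.87 and 1.09 per kb, and 62.2% to 72.8% of genes of like length held it.

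The sites of the close pairs are shown because they are where the transcripts of each pair can be compared at this motif, which stands in capitals. The transcripts run on the minus strand of GRCm38, and the sites lie at chr3:144730390-144730414 and chr3:144730282-144730306 (Clca3a1), chr3:144797259-144797283 (Clca3a2), chr3:144952524-144952548 (Clca4a), and chr3:144910959-144910983 and chr3:144910943-144910967 (Clca4b). All are in the 3′ UTR.
Clca3a1 site 1: taattgttccATTTActatggaaat
Clca3a2 site 1: taattgttccATTTActatggaaat
Clca3a1 site 2: aattattcatATTTAatagcaaaca
Clca4a site 1: caatattaatATTTAtaattttatt
Clca4b site 1: aatattaatgATTTAtaattttatt
Clca4b site 2: aattttattcATTTAtcatagtgat

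The first site was the same in Clca3a1 and Clca3a2 over the 25 bases shown, 208 and 206 bases after the stop codon. Clca3a1 had a second site and Clca3a2 had none. Clca4a and Clca4b had a site at the same distance of 137 bases after the stop codon, and Clca4b had a second one at 153 bases. Clca4b, with 2 sites, had a log2 fold change of -0.50, and Clca4a, with 1, of 0.21. Clca1, with 2 sites, had 0.60. A relation between sites and differences was not tested. Both Clca1 sites (chr3:145004363-145004387 and chr3:145004336-145004360) lie beyond the deposited end of the gene at 145004537, in the part of the 3′ UTR that was not counted.

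Clca1 was next set beside the genes of the cell that makes it. Of 14 goblet cell genes, 12 had a log2 fold change above 0 and 1 was called higher, with a median of 0.25. The called gene was Klk1, a secreted serine protease (log2 fold change 0.71, edgeR adjusted p = 0.0393), and 1.45% of all genes tested were called higher. That call was lost whichever pool was left out (adjusted p of 0.0585 to 0.223) and with the pool with the most smooth muscle of each genotype left out (0.0928). DESeq2 called 3 genes of the list (8.39% of the genes it gave an adjusted p) and the fit with a smooth muscle covariate 2 (4.33% of all). With the replicate block, a Y-linked covariate or the GC offset 0 were called. The summed CPM of the list was 18270, 21330 and 19740 in the pools labelled Rbm47_IKO and 17080, 16050 and 14170 in wt, without overlap. This separation of the sum was lost without Fcgbp, since the other 13 genes summed to 4775, 6111 and 5461 against 4993, 5238 and 3794, which overlap. Taken singly, Fcgbp, Klk1, Creb3l1, Capn9 and Atoh1 were higher without overlap, as were 11.7% of all genes tested. Of the 14, 4 had an unadjusted edgeR p under 0.05 (16.8% over all genes).

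The abundant mucus genes had smaller log2 fold changes than Clca1. Fcgbp, the mucus protein with IgG Fc-binding homology which ranked 3 by mean CPM among all genes in the tables, stood at 0.37 on the log2 scale (edgeR adjusted p = 0.261). Zg16, a lectin of the mucus layer, had 0.28 (adjusted p = 0.596), Muc2, its gel-forming mucin, 0.25 (adjusted p = 0.504), and the trefoil peptide Tff3 0.06 (adjusted p = 0.944). For each Muc2 count there were 2.45, 2.55 and 1.81 Clca1 counts in the pools labelled Rbm47_IKO and 1.47, 2.06 and 1.96 in wt, and these ranges overlapped. So did those for each Fcgbp count (0.209 to 0.302 against 0.211 to 0.249) and each Tff3 count (3.38 to 5.92 against 2.41 to 4.22). A difference of Clca1 from these 3 goblet cell genes was thus not larger than the spread between pools.

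**Figure D5:**
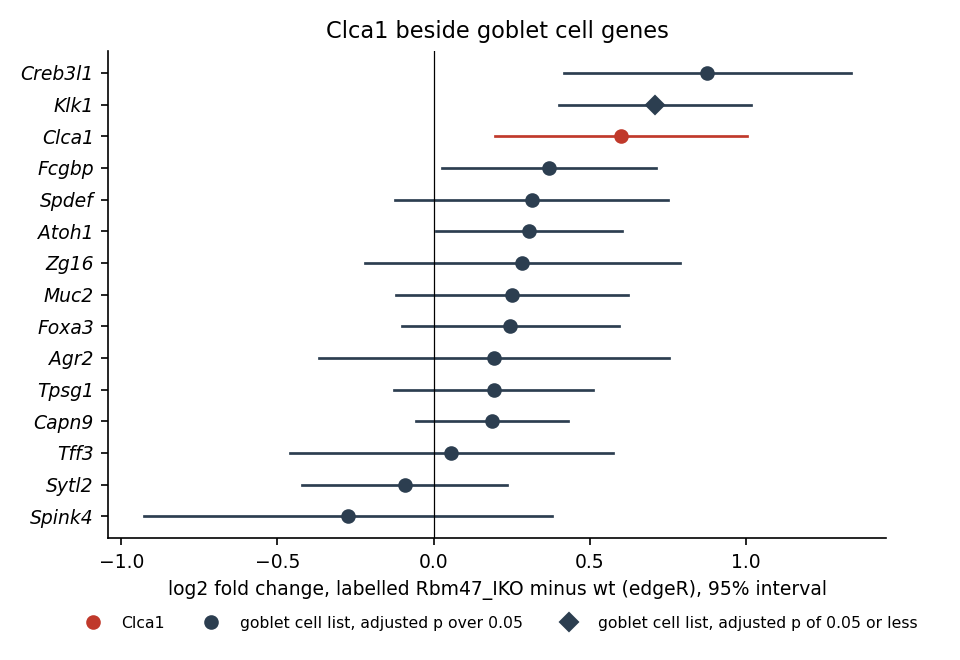
Log2 fold change with its 95% interval for Clca1 (red) and 14 goblet cell genes (dark blue), ordered by value. Clca1 at 0.60 lies below Creb3l1 and Klk1 only, and its interval overlaps those of the other genes.

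Clca4a and Clca4b were set beside genes of the absorptive cell and of its position on the villus. Of 11 enterocyte genes, 5 had a log2 fold change above 0 and 6 below, with a median of -0.10. Of these 11, 0 were called by edgeR, 6 had an unadjusted p under 0.05 (16.8% over all genes), 5 were called by DESeq2 (8.39%) and 1 by limma-voom (2.62%). Their summed CPM was 62810, 68510 and 63920 in the pools labelled Rbm47_IKO and 75080, 71680 and 79680 in wt, without overlap. This separation was lost without Apob, since the other 10 genes summed to 51970, 58080 and 54060 against 55370, 56780 and 57560, which overlap. The gene with the highest level, Apob, the core protein of chylomicrons, had -0.87 (edgeR adjusted p = 0.0583). The peptidase gene Anpep had 0.52 (adjusted p = 0.107), the lipid carrier gene Apoa1 -0.10 (adjusted p = 0.88) and the disaccharidase gene Sis -0.39 (adjusted p = 0.271). Of 9 villus tip genes, 3 had a log2 fold change above 0 and 6 below, with a range of -1.09 to 0.42 and a median of -0.15. Their summed CPM was 6922, 6865 and 6078 in the pools labelled Rbm47_IKO and 6936, 11810 and 11920 in wt, separate by little. Without Apoa4, the gene with the highest level, the sums overlapped (3585, 3316 and 2881 against 2641, 3717 and 4018). Of the 9, 3 had an unadjusted edgeR p under 0.05 (16.8% over all genes). DESeq2 called 3 (8.39%) and limma-voom 1 (2.62%). The 1 called by edgeR was Nt5e, which makes adenosine at the cell surface, at -1.09 (adjusted p = 0.0219), where 1.25% of all genes tested were called lower. Its call was lost without wt pool 3, without any 1 of the pools labelled Rbm47_IKO (adjusted p of 0.0504 to 0.153), with the replicate block (0.0689) and with the Y-linked covariate (0.106). Of 8 antimicrobial genes of the lower villus, 3 were above 0 and 5 below, from -1.29 to 1.37, with a median of -0.17. Their summed CPM was 5263, 5416 and 4339 in the pools labelled Rbm47_IKO and 9505, 9471 and 6522 in wt, without overlap. The sums stayed apart without Reg3b (2435, 2531 and 2169 against 4392, 3671 and 2720), the gene with the highest level (-0.90, edgeR adjusted p = 0.0639). Of the 8, 4 had an unadjusted edgeR p under 0.05 (16.8% over all genes). DESeq2 called 4 (8.39%) and limma-voom 1 (2.62%). The lectin gene Reg3g was called lower by edgeR at -1.29 (adjusted p = 0.0427). That call was lost whichever pool was left out (0.0504 to 0.206) and with the replicate block (0.0618), the Y-linked covariate (0.126) and the GC offset (0.0739). It was also lost with the pool with the most smooth muscle of each genotype left out (0.0962). Reg3a, a relative of Reg3g, stood highest at 1.37 (adjusted p = 0.11). Ileal genes, which mark the position along the gut, had a summed CPM over 5 genes of 570, 618 and 457.4 in the pools labelled Rbm47_IKO and of 439.5, 310.7 and 313 in wt, without overlap. This separation was lost without Slc51a, a bile acid transporter gene. The other 4 genes summed to 126.3, 138.2 and 86.52 against 115.6, 51.75 and 51.62, which overlap. Slc51a and Fabp6 each did not overlap, as for 11.7% of all genes tested on the higher side. Fabp6 had a CPM of 31.72, 39.79 and 18.56 against 17.23, 3.979 and 2.552 (log2 fold change 1.93, edgeR adjusted p = 0.201). Slc10a2, the 1 ileal gene below 0 (-0.47, adjusted p = 0.864), was highest in wt pool 1 at 44.35. Of the 5 ileal genes, 4 were above 0, with a median of 0.64. By edgeR 0 were called (3 at an unadjusted p under 0.05, 16.8% over all genes). DESeq2 called 2 (8.39% of the genes it gave an adjusted p) and limma-voom 0. The 5 genes of the proximal small intestine overlapped (4995 to 6192 and 4258 to 5711), with 4 above 0, a median of 0.17, 0 called by any of these tools and 1 at an unadjusted edgeR p under 0.05. The part of gut position in the values of the Clca genes was not tested. The log2 fold change of Clca4b lay inside the range of the enterocyte list, which ran from -1.01 to 0.52.

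Genes of intestinal chloride and fluid transport, the setting in which Clca proteins were first studied, were not called by edgeR. Of 19 listed, 16 were tested, with 9 above 0 and 7 below. By edgeR 0 were called (2.70% over all genes) and 3 had an unadjusted p under 0.05 (16.8%). DESeq2 called 1 (8.39% of the genes it gave an adjusted p) and limma-voom 0 (2.62% of all). The median log2 fold change of the 16 was 0.07 and the range -0.50 to 0.37. Ano1, the calcium-activated chloride channel that Clca1 is known to act on, had a CPM of 7.654, 9.769 and 15.71 in the pools labelled Rbm47_IKO and of 4.558, 17.81 and 7.025 in wt. These values overlapped widely (log2 fold change 0.17, adjusted p = 0.924). Ano1 was highest in pool 3 labelled Rbm47_IKO and in wt pool 2, the pools with the most smooth muscle of each genotype (summed CPM 3302 and 2803). The part of smooth muscle in its values was not tested. Cftr, the cyclic AMP-dependent chloride channel, had -0.12 (adjusted p = 0.782). The most abundant genes of the list were Ano6, a phospholipid scramblase, at -0.04 (adjusted p = 0.933), the anion exchanger gene Slc26a6 at -0.40 (adjusted p = 0.17), the bicarbonate cotransporter gene Slc4a4 at 0.36 (adjusted p = 0.178) and the chloride channel gene Clcn2 at -0.50 (adjusted p = 0.105).

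Type 2 cytokine signalling, which is known to induce goblet cell Clca1, was represented by 8 genes, of which 6 were tested and 0 called by edgeR (1 at an unadjusted p under 0.05), DESeq2 or limma-voom. Il4 and Il13 were counted too rarely to be tested. Of the 6 tested, 4 had a log2 fold change above 0 and 2 below, with a median of 0.155 and a range of -0.153 to 1.501. The highest value was that of Retnlb (edgeR adjusted p = 0.37), a gene with few counts. Its CPM was 1.242, 2.587 and 0.3369 in the pools labelled Rbm47_IKO and 0.2647, 0.8432 and 0.3567 in wt, which overlap. The alarmin gene Il33 stood at 0.54 on the log2 scale (edgeR adjusted p = 0.28), the receptor gene Il13ra1 0.19 (adjusted p = 0.711), the receptor gene Il4ra -0.02 (adjusted p = 0.974) and Stat6, which relays their signal, 0.12 (adjusted p = 0.755).

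For each member, the genes with the most similar pattern were found by Pearson's correlation of log2 CPM over the 6 pools. These values describe 6 points that share libraries and genotype, and with 16425 genes to choose from, high values occur for any gene. For Clca1 they were Cdx2, a transcription factor of intestinal identity (r = 0.993), Cops7a (0.993) and Strn4 (0.992). Cdx2 had a CPM of 265.6, 279.6 and 203.8 in the pools labelled Rbm47_IKO and of 169.2, 161.5 and 176.1 in wt (log2 fold change 0.56, edgeR adjusted p = 0.0835), with pool 3 the lowest of its genotype as for Clca1. For Clca4b they were Zbtb33 (0.998), Zfp110 (0.995) and Mob3b (0.995), and for Clca4a Slc2a8 (0.994), Acvr1 (0.992) and Ces3a (0.988). For Clca3a1 they were Ubald2 (0.994), Emb (0.992) and Ubox5 (0.990). For Clca3a2 they were Fam122b (0.996), Mbd1 (0.996) and Tmem260 (0.990), for Clca3b Dpy19l1 (0.993), Ndc80 (0.987) and the proglucagon gene Gcg (0.987), and for Clca2 Cpped1 (0.998), Cmtm6 (0.995) and Ankmy2 (0.994).

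Among the members themselves, the 3 Clca3 genes varied together. Over the 6 pools, r was 0.924 between Clca3a1 and Clca3a2, 0.893 between Clca3a2 and Clca3b and 0.807 between Clca3a1 and Clca3b. With the genotype means removed, the values were 0.657, 0.852 and 0.612. Clca4a ran against all 3, with r of -0.914 for Clca3a1, -0.892 for Clca3a2 and -0.840 for Clca3b, and of -0.940, -0.858 and -0.709 within genotypes. Its low value and their high values fell in the same library, wt pool 1. Clca1 and Clca4b had r of -0.529 over the pools but 0.666 within genotypes, since each was lowest in pool 3 among the pools labelled Rbm47_IKO. Reads of the close copies are not independent measures, so that part of the first values may be shared reads.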

How the data were processed

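Mucosal RNA was sequenced in 6 pools, 3 per genotype, grouped by the genotype in their labels. For every pool the authors deposited an unnormalized read count for 38561 genes. Beside it stand the deposited CPM, scaled to the column total, and the deposited RPKM, which also divides by gene length. Recomputed values of both differed by less than rounding. The submitters' processing notes name STAR 2.5.1a, Subread, featureCounts 1.4.6-p5 and GRCm38, and the use of strand is not given in the sources used here.

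The software was R 4.3.3 (with DESeq2 1.42.0, edgeR 4.0.16 and limma 3.58.1) and Python 3.11.15 (with Biopython 1.88 for sequences). After filterByExpr, 16425 genes were scaled by TMM and entered the edgeR quasi-likelihood test, with Benjamini-Hochberg adjustment over all of them, at 0.05 as in the study. CPM and RPKM in the text use TMM library sizes, and correlations use log2 CPM with a prior count of 2. Gene symbols (36723 matched), transcripts and 3′ UTRs came from GENCODE M21 (GRCm38). For the UTRs the transcript with the longest 3′ UTR was used.

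The members, gene lists and tests were chosen with earlier results of these data known. Named were the members, Rbm47, genes in or next to the cluster, the 3 genes most correlated with each member, and from each list the called genes and up to 4 with the highest CPM. Creb3l1, Capn9, Atoh1, Ano1, Cftr, Tff3, Clcn2, Reg3a and Retnlb were named after their values were seen, where they fall outside that rule. Alternatives were DESeq2, limma-voom, other scalings, other filters, covariates, a block on the pool number, summed paralogs and each pool left out. An offset for GC content was added after the data were seen. On simulated data for this comparison (16125 genes, 200 changed), edgeR recovered 94.1% of changes of 3 and 32.9% of changes of 1 on the log2 scale, and 7.56% of its calls were false. The 6 pools held different values and all were used.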

Additional observations from a re-analysis of the deposited data

How the results depend on the processing

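All 7 members kept their direction under every alternative run, except Clca4a when summed with Clca4b (log2 fold change -0.246, edgeR adjusted p = 0.454), where the sum is led by Clca4b. The order of the members by mean level was the same by CPM and by RPKM in each genotype. The number of genes called was 443 with the settings used, 1243 with DESeq2, 711 with a smooth muscle covariate, 270 with an offset for GC content (chosen after seeing the data), 59 with a Y-linked covariate and 0 to 431 when 1 pool was left out. It was 0 without pool 2 labelled Rbm47_IKO. Of the members, 1 was called, against 4 with DESeq2 (Clca1, Clca3a1, Clca3a2 and Clca4b), 2 without the filter or with the smooth muscle covariate, 0 with limma-voom or the Y-linked covariate and 0 to 1 when 1 pool was left out. The summed Clca3a1 and Clca3a2 had an edgeR adjusted p of 0.0490 and fell short of the threshold with library size scaling (log2 fold change -2.27, adjusted p = 0.0505), limma-voom (-2.01, 0.0775), the Y-linked covariate (-2.05, 0.21), the pool with the most smooth muscle of each genotype left out (-2.41, 0.0561) and the GC offset (-2.24, 0.0578). Fits that left out 1 pool gave -2.54 to -1.47, and 2 of the 6 were past the threshold. Clca3a1 alone passed under 11 of 18 alternatives, and with limma-voom it had -2.77 (adjusted p = 0.105). The causes were not tested.

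No pairing by pool number was assumed in the settings used. Deviations of same-numbered pools from their genotype means correlated at 0.408, -0.00258 and -0.277, and those of differently numbered pools at -0.536 to 0.479. With 3 pools per genotype these values cannot decide whether the numbers pair the samples. With the replicate block 100 genes and 0 members were called, the summed pair had -2.01 (adjusted p = 0.0808) and Clca3a1 -2.76 (0.0904). Depth, at 31560320 to 38951830 counts a pool, left 40 to 118 counts for Clca2 and more for every other member in the same pool.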
